A study of Mus musculus with 11 samples.

Results

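The Iroquois genes Irx1, Irx2, Irx3, Irx4, Irx5 and Irx6 were taken by name, as the 6 mouse members of the family in its pair of clusters, and no measured value was used to choose them. All 6 were found among the 33580 genes with a placed transcription start and among the 30940 genes with an RNA value. On mm10, counted from 1, the first cluster holds Irx1 (13:71958232-71963723, minus strand), Irx2 (13:72624430-72634196, plus strand) and Irx4 (13:73259589-73269622, plus strand). The second holds Irx3 (8:91798511-91801654, minus strand), Irx5 (8:92357796-92361456, plus strand) and Irx6 (8:92674289-92680956, plus strand).

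Histone marks were mapped in 3 populations, each once per mark. Cap mesenchyme, the nephron progenitors, was sorted as Cited1-RFP+ cells at E18.5 from mice of genotype Cited1nuc-TagRFP-T on C57BL/6J, of (C57BL/6 x DBA)F1 origin. Ureteric epithelium, which branches to form the collecting ducts, was sorted as Hoxb7-GFP+ cells at E15.5 from mice of genotype Hoxb7myr-Venus/+ on C57BL/6J, of (C57BL/6J x CBA/J)F2 origin. The stem cells were the wild-type 129/Ola line E14, which is 1 cell line, at passage 15. RNA came from C57BL/6 wild types at E11.5, as hand-dissected metanephric mesenchyme (unsorted, so it holds stroma and vessels beside progenitors) and ureteric epithelium. The RNA tissues are thus younger than the sorted cells, and the mesenchyme is not the same population as the cap mesenchyme. With 1 sample in each of the 11 groups, 3 of them input libraries not analysed here, no difference below has a replicate check and no test was made.

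Iroquois proteins are transcription factors with an atypical homeodomain of the TALE class, and each mouse cluster carries 3 genes that arose by duplication of an ancestral cluster. They are known for dividing developing tissues into territories, among them the neural tube, the heart, the limb and the retina. In the frog pronephros and the mouse nephron, members of the family are known for patterning the tubule into segments. H3K4me3 marks promoters open to transcription, H3K27me3 is laid down by Polycomb repressive complex 2, and developmental regulators in stem cells often carry both marks at their starts. In a sorted population both marks at a start need not lie in the same cell.

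The stretch of promoter sequence shown is the one at Irx3, because this member lacked H3K27me3 calls in ureteric epithelium while its RNA was highest there. Of the 6 members, 3 (Irx2, Irx3 and Irx4) matched an entry of the RefSeq promoter table, build GRCm38.p6. The 220 bases upstream of the Irx3 start, from 8:91801904 to 8:91801685 on the minus strand and ending 30 bases before the start, are given 5′ to 3′ with every CG dinucleotide in capitals.
Irx3: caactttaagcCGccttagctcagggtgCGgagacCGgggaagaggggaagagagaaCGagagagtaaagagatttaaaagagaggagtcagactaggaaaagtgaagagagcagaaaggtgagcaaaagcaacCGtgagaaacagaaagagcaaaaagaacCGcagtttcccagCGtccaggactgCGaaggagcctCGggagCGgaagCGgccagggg
The stretch holds 11 CG dinucleotides (on both strands, since CG is its own reverse complement) at a GC content of 53.2%. Of 32851 RefSeq promoters, 30.7% hold at least as many in the same 220-base window, and the median promoter holds 5. H3K4me3 peaks covered all of these bases in the 3 populations. H3K27me3 peaks covered 60.9% of them in cap mesenchyme, 0% in the ureteric epithelium and 100% in E14 cells.

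A mark was called present where at least 1 bp of a peak lay within 1 kb of the outermost start, a window of 2001 bp. In cap mesenchyme all 6 members carried H3K4me3, where 50.3% of all genes did, and all 6 carried H3K27me3, where 7.03% of all genes did. In stem cells the counts were again 6 and 6, beside 55.9% of all genes for H3K4me3 and 9.77% for H3K27me3. In ureteric epithelium 5 members carried H3K4me3, beside 46.3% of all genes, and 5 carried H3K27me3, beside 9.89%. The member without H3K4me3 there was Irx4, and the member without H3K27me3 was Irx3. Both marks together stood at 6 members in cap mesenchyme, beside 4.89% of all genes, at 4 in ureteric epithelium, beside 5.23%, and at 6 in stem cells, beside 9.05%. Irx1, Irx2, Irx5 and Irx6 carried both marks in all 3 populations, as did 641 of all genes, or 1.91%. With only the upper 50% of each list by score, H3K4me3 stood at 3 members in ureteric epithelium and both marks at 2; with lists of equal length, both counts were 3 in E14 cells. These 4 members also carried H3K27me3 throughout with Irx4, so 5 members had that mark in all 3 populations, beside 3.41% of all genes.

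**Figure D1:**
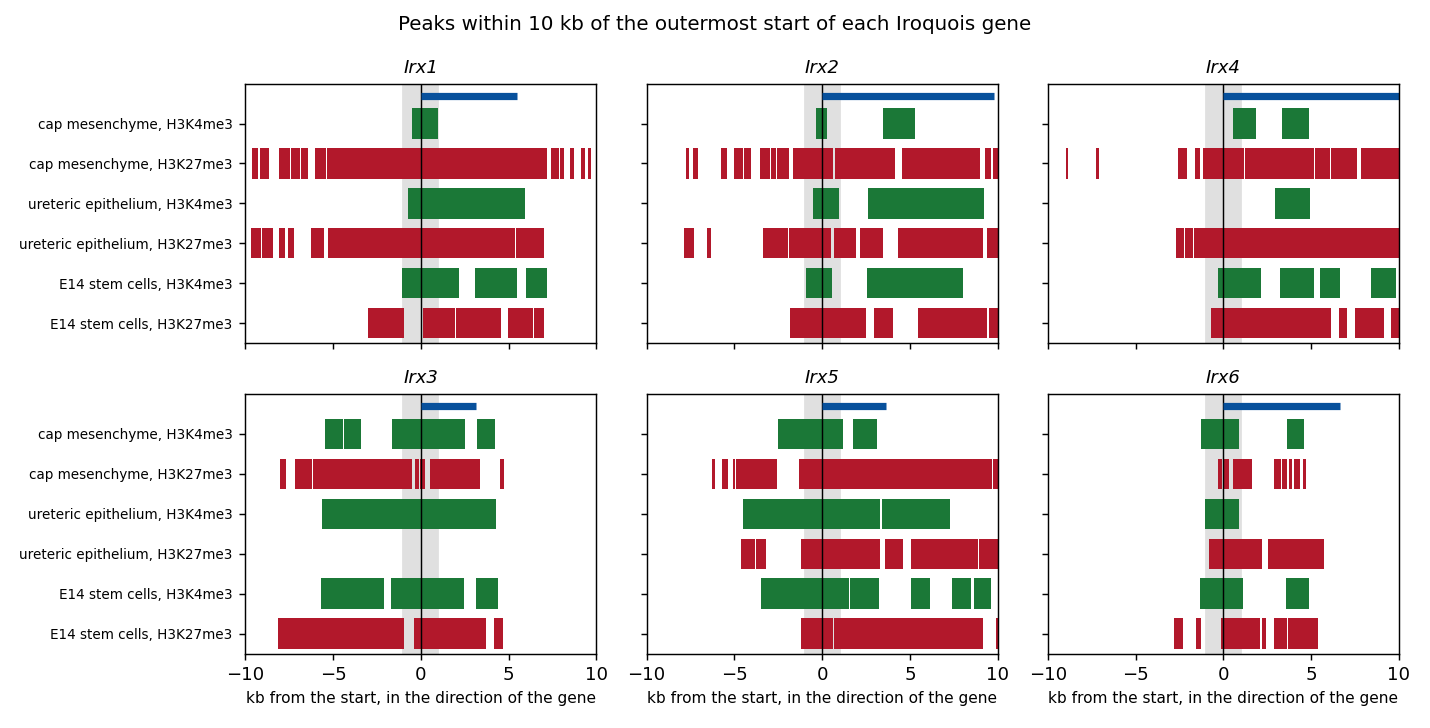
Peaks of H3K4me3 (green) and H3K27me3 (red) within 10 kb of the outermost start of each member, 1 peak list per row, plotted by distance in kb from the start in the direction of the gene (blue bar, the gene; grey band, the 2001-bp window). The row of H3K27me3 in ureteric epithelium is empty at Irx3, and H3K4me3 in that population lies only downstream of the Irx4 window.

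Irx3, known for neural tube patterning and for the heart's conduction system, was, with Irx4, 1 of the 2 members with a call that differed between the kidney populations. Its start lay under H3K4me3 across the full 2001-bp window in all 3 lists. The peak at the start spanned 4.153 kb in cap mesenchyme (8:91799143-91803295), 9.93 kb in ureteric epithelium (8:91797377-91807306) and 4.123 kb in stem cells. H3K27me3 covered 1473 bp of the window in cap mesenchyme, 0 bp in the ureteric epithelium and 1427 bp in E14 cells. The empty call in ureteric epithelium was not limited to the window. No peak of that list lay between 8:91774449 and 8:91864600, a stretch of 90.2 kb around the gene. Counted from the first base of the cluster, the same list also held no peak from 326.4 to 467.5 kb. In that count, no H3K27me3 peak lay from 11.2 to 66.8 kb in cap mesenchyme or from 11.3 to 558 kb in stem cells. The lists thus differed at and near the gene, while much of the 90.2 kb was bare in all 3. In cap mesenchyme the gene with 10 kb on each side held 10.494 kb under H3K27me3, or 45.3%, and its best peak there had a score of 3074, above 99.9% of that list. The same span held 11.8 kb in stem cells, or 51.0%. The score is the authors' own value for a peak and is used only to rank peaks within a list. The H3K27me3 peaks over the Irx3 start itself scored far lower. The one in cap mesenchyme had a score of 72.2, beside a list median of 51.7, and reached only the edge of the printed sequence. Most of the printed bases covered in cap mesenchyme lay under the next peak (8:91801776-91801981), with a score of 67.9. The start peak in E14 cells covered all of the printed sequence. It had a score of 41.8, beside a list median of 69.6 and a lowest score of 40.0.

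Among all genes, 181 had the same 6 calls as Irx3 (both marks, H3K4me3 alone, both marks, in the order cap mesenchyme, ureteric epithelium, stem cells), or 0.539%. The 181 included 5 of the 27 genes in a list for early nephron and segment patterning, among them Wnt4, Lhx1, Pou3f3 and Mecom. They also included 5 of the 126 genes in a homeobox list, among them Emx2, Hoxd1, Lhx1 and Pou3f3. None of the 12 TALE relatives of the Meis, Pbx, Pknox, Tgif and Mkx families shared the pattern.

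Irx4, known for the identity of the ventricular heart muscle, differed from the others in the opposite mark. H3K4me3 covered 477 bp of its window in cap mesenchyme, 0 bp in the ureteric epithelium and 1323 bp in E14 cells. The nearest H3K4me3 peak in ureteric epithelium began 2.95 kb from the start. H3K27me3 covered 1995 bp in cap mesenchyme, 2001 bp in the ureteric epithelium and 1687 bp in E14 cells. The 6 calls of Irx4 were shared by 312 genes, or 0.929%. The RefSeq start of Irx4 lies 908 bp downstream of the outermost one, and the window there also held 0 bp of H3K4me3 in ureteric epithelium, against 1311 bp in cap mesenchyme and 2001 bp in stem cells. In cap mesenchyme the outermost start itself was not under the H3K4me3 peak, and that call was lost with a window of 500 bp on each side.

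Irx5, which works beside Irx3 in the heart and is known in retinal bipolar cells, had the most complete double cover. H3K4me3 covered its whole window in the 3 populations, and H3K27me3 covered 1993 bp in cap mesenchyme, 2001 bp in the ureteric epithelium and 1944 bp in E14 cells. The bases under both marks made up 99.6% of the window in cap mesenchyme, 100% in the ureteric epithelium and 97.2% in E14 cells. Its neighbour Irx6, also known in retinal bipolar cells, had 1870, 1905 and 2001 bp under H3K4me3 in the same order, with 1044, 1848 and 1124 bp under H3K27me3. The share of the Irx6 window under both marks was 45.6% in cap mesenchyme, 87.6% in the ureteric epithelium and 56.2% in E14 cells.

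Irx1 and Irx2, which mark tubule segments in the developing nephron, carried both marks in every population but with different extents. H3K4me3 covered 1472 bp of the Irx1 window in cap mesenchyme, 1714 bp in the ureteric epithelium and 2001 bp in E14 cells. H3K27me3 covered 1987, 2001 and 932 bp there in the same order. In stem cells the Irx1 start itself lay in a gap of 1.07 kb between H3K27me3 peaks. At the outermost start of Irx2, H3K4me3 covered 640, 1498 and 1456 bp and H3K27me3 covered 1870, 1850 and 2001 bp in cap mesenchyme, the ureteric epithelium and E14 cells. The RefSeq start of Irx2 lies 4390 bp downstream, and there H3K4me3 covered 1842, 2001 and 2001 bp while H3K27me3 covered 1557, 1181 and 628 bp. Both starts of Irx2 thus carried both marks in all 3 lists.

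H3K4me3 was also wider in ureteric epithelium than in cap mesenchyme around several members. This comparison was chosen after the peak widths had been seen. Within 5 kb of the start, bases under H3K4me3 came to 1.472 kb in cap mesenchyme and 5.714 kb in the ureteric epithelium at Irx1, a ratio of 3.88. At Irx5 they came to 5.007 and 9.424 kb, a ratio of 1.88, and at Irx2 to 2.196 and 3.876 kb, a ratio of 1.77. At Irx3 they came to 6.631 and 9.278 kb, a ratio of 1.40. At Irx4 and Irx6 the order was the other way, with ratios of 0.693 and 0.633. The ratio reached 1.5 at 3 of the 6 members, beside 2.87% of the 17017 genes with H3K4me3 in both populations. The median ratio of those genes was 0.918. Stem cells, whose H3K4me3 list is the longest, had 5.178 kb at Irx1, 3.888 kb at Irx2, 8.269 kb at Irx3 and 6.694 kb at Irx5. With 4.272 kb at Irx4 and 3.753 kb at Irx6, they had more than cap mesenchyme at all 6 members. The peaks at the outermost starts of Irx1 and Irx2 in ureteric epithelium had low scores, above 34.1 and 28.3% of that list, while the one at Irx5 was above 91.8%. With only the upper 50% of each list by score, the order on the chromosome 13 cluster turned, with H3K4me3 over 0.593% of it in cap mesenchyme and 0% in ureteric epithelium. The median peak width over the whole list was 1312 bp in cap mesenchyme and 1547 bp in ureteric epithelium.

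**Figure D2:**
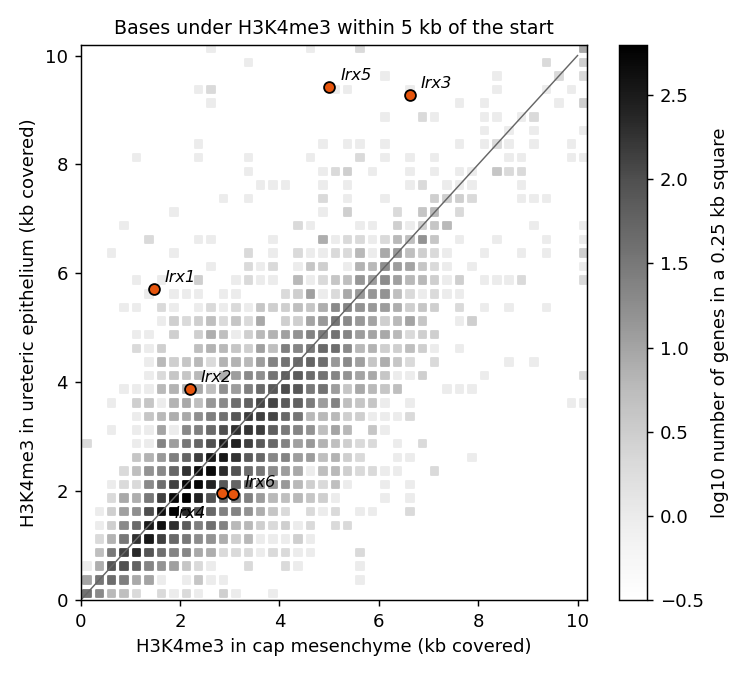
Bases under H3K4me3 within 5 kb of the start in cap mesenchyme (x axis, kb) and ureteric epithelium (y axis, kb), for all genes with the mark in both (grey squares, log10 number of genes) and the 6 members (orange), with the line of equal cover. Irx1, Irx2, Irx3 and Irx5 lie above the line and Irx4 and Irx6 below it.

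RNA was given as FPKM, which divides fragments by the length of the transcript and the size of the library, so levels may be compared between genes per length. Irx3 was listed at 0.588 FPKM in metanephric mesenchyme and 9.51 FPKM in ureteric epithelium. The authors' deposited table gives its main transcript, NM_008393, an interval from 0.301 to 0.875 FPKM in mesenchyme and from 7.80 to 11.2 FPKM in ureteric epithelium, and these intervals do not overlap. The level in ureteric epithelium was 16.2 times that in mesenchyme, a log2(FPKM + 1) difference of -2.73 for mesenchyme minus ureteric epithelium. On that scale the change of low genes is understated. With a pseudocount of 1 FPKM, Irx3 was the 1 member counted as 4-fold different (a difference of 2 or more, with 2 FPKM or more in the higher library), beside 4.89% of 10241 genes that were 4-fold higher in ureteric epithelium. No member was 4-fold higher in mesenchyme, beside 2.49% of genes. Among the members only Irx1 and Irx3 reached 2 FPKM in either tissue, so the others could not be called in either direction. Over all genes the calls were 501 in ureteric epithelium and 255 in mesenchyme, and 328 and 389 after all differences were shifted by the median of the genes that reached 1 FPKM in both libraries.

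Irx1 was listed at 0.0204 FPKM in mesenchyme and 2.22 FPKM in ureteric epithelium, and the level in ureteric epithelium was 109 times that in mesenchyme. The ureteric value came almost wholly from a transcript of class code j, at 2.22 FPKM, not from the reference transcript (class code =). The reference transcript was at 5.69e-05 FPKM there and was marked LOWDATA by the authors in both tissues. The locus of both transcripts reaches 71964692, upstream of the start at 71963723 used for the mark calls. Which start gave this RNA was not tested. The summed intervals, 0 to 0.165 FPKM and 1.499 to 3.03 FPKM, do not overlap, and since the one in mesenchyme reaches 0 the ratio has no upper limit. With the pseudocount of 1 FPKM the log2 difference was -1.66, short of the 4-fold call, while with pseudocounts of 0.1 and 0.01 FPKM it was -4.27 and -6.20, past it. Irx2 was listed at 0 FPKM in mesenchyme and 0.401 FPKM in ureteric epithelium, with an interval from 0.157 to 0.644 FPKM in the authors' deposited table. The remaining members were near 0 in both tissues. Irx4 stood at 0.158 and 0.165 FPKM, Irx5 at 0.0998 and 0.0308 FPKM, and Irx6 at 0.0240 and 0 FPKM, in mesenchyme and ureteric epithelium. For each of these 3 genes the authors' intervals overlapped. In ureteric epithelium the order of levels was Irx3, Irx1, Irx2, Irx4, Irx5 and Irx6, and the intervals of Irx2 and Irx4 overlapped, as did those of Irx4 and Irx5. The shift by the median of the genes that reached 1 FPKM in both libraries, -0.45, left Irx3 at -2.28.

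**Figure D3:**
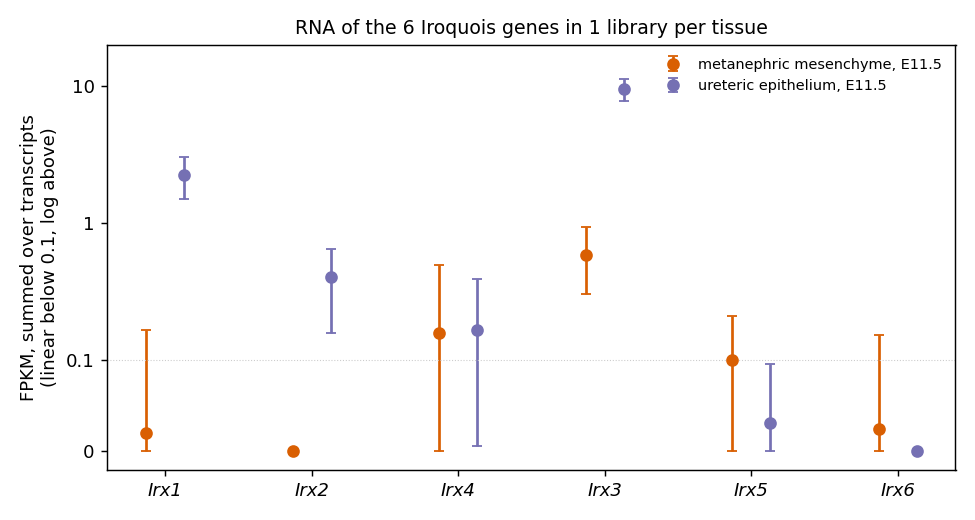
RNA of the 6 members in FPKM (linear below 0.1, log above), 1 library each of metanephric mesenchyme (orange) and ureteric epithelium (violet). Points are sums over the transcripts of a gene and bars join the summed bounds of the authors' intervals, which carry no replicate spread; the Irx3 bars and the Irx1 bars do not overlap.

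Summed markers of some other cell types differed between the tissues, and those of others were close. Markers of the differentiating nephron (Wnt4, Lhx1, Pax8 and Jag1, none at 0) summed to 6.97 FPKM in mesenchyme and 47.3 FPKM in ureteric epithelium, though Wnt4, the signal that starts nephron formation, was listed at 4.12 FPKM in mesenchyme and 0.552 FPKM in ureteric epithelium. Lhx1 and Jag1, which hold most of that sum, were at 18.4 and 23.8 FPKM in ureteric epithelium. Tubule markers summed to 0.106 and 0.0195 FPKM, with Slc34a1 and Slc12a1 at 0 in both. Ureteric markers summed to 5.53 FPKM in mesenchyme and 2331 FPKM in ureteric epithelium, and progenitor markers to 196 and 10.4 FPKM. Of the 7 progenitor markers, 6 were 4-fold higher in mesenchyme. Cited1 went the other way, at 2.78 FPKM in mesenchyme and 8.34 FPKM in ureteric epithelium, where it made up most of the sum. The part of these cell types in the RNA values of Irx1 and Irx3 was not tested. In bulk samples, fewer cells of a type and less RNA per cell cannot be told apart. Stromal markers summed to 221 FPKM in mesenchyme and 1.73 FPKM in ureteric epithelium. In the same order, endothelial markers summed to 25.8 and 2.95 FPKM. Markers of neurons and neural crest summed to 5.65 and 5.16 FPKM, and podocyte markers to 1.93 and 1.66 FPKM. At their starts, 5 of 5 endothelial markers carried H3K4me3 in the ureteric epithelium list, beside 46.3% of all genes. In the cap mesenchyme list 1 of 5 did, beside 50.3% of all genes. The part of endothelial cells in the mark calls was not tested. The stem cell markers Pou5f1 and Nanog carried H3K4me3 in E14 cells and were at 0 FPKM in both tissues, while Esrrb carried neither mark at its outermost start in any list.

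Beside the Irx3 transcripts, 2 transcripts without a reference gene lay near its start. One of 258 bp (8:91801767-91802024) lay 113 bp upstream of the Irx3 start on the same strand and was listed at 3.88 FPKM in mesenchyme and 26.4 FPKM in ureteric epithelium. Its intervals in the authors' deposited table, 0 to 7.84 and 13.9 to 38.9 FPKM, do not overlap. The other, of 751 bp on the plus strand (8:91810188-91810938), was listed at 0.109 and 2.91 FPKM. Both were therefore higher in ureteric epithelium, in the same direction as Irx3.

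Genes with all 6 calls of Irx3, both marks in stem cells included, can be read against their RNA as Irx3 was. Of all 10241 genes with 2 FPKM or more in either tissue, 4.89% were 4-fold higher in ureteric epithelium and 2.49% in mesenchyme. Of the 54 genes with the 6 calls of Irx3 and 2 FPKM or more in either tissue, 25 were 4-fold higher in ureteric epithelium, or 46.3%, and 1 was 4-fold higher in mesenchyme. Of 92 such genes with both marks in all 3 populations, the pattern of Irx1, Irx2, Irx5 and Irx6, 27 were 4-fold higher in ureteric epithelium and 18 in mesenchyme. Of 13 such genes with the calls of Irx4, 2 were higher in ureteric epithelium and 4 in mesenchyme. Irx3 itself is among the 54 and among the 25. Lhx1, a LIM homeobox factor of the early nephron, stood at 0.0532 FPKM in mesenchyme and 18.4 FPKM in ureteric epithelium.

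Likeness was measured over a list of 126 homeobox genes, the Hox genes and others chosen by name. It was the Euclidean distance across the 6 covered shares of the promoter window and the 2 log2 RNA values, 8 values in all. Among the 5 genes nearest to Irx3 were Hoxd1 at a distance of 0.713, Lhx1 at 1.13, En2 at 1.77 and Six4 at 1.81. En2 and Six4 did not share the calls of Irx3. En2 carried H3K27me3 alone in ureteric epithelium, and Six4 carried H3K4me3 alone in every population. Nearest to Irx5 was Otx1, at 0.172, and nearest to Irx6 was Pitx3, at 0.242. Nearest to Irx4 was Evx2, at 0.368. Lmx1a was nearest to both Irx1, at 1.02, and Irx2, at 0.610. Irx3 was thus nearest to genes with RNA in ureteric epithelium, while Otx1, Pitx3 and Evx2 stood beside members with RNA near 0, and the RNA values are among those that set the distance.

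Of the wider lists, the 12 TALE relatives all carried H3K4me3 in the 3 populations, with H3K27me3 at 1 in cap mesenchyme, 3 in the ureteric epithelium and 4 in E14 cells. RNA was 4-fold higher in mesenchyme for 3 of them, the Meis genes that work as partners of Pbx and Hox proteins, and for none in ureteric epithelium. Meis1 stood at 62.4 and 0.288 FPKM and Meis2 at 152 and 1.98 FPKM, the opposite direction from Irx3. In the early nephron list of 27 genes, H3K27me3 stood at 12 in cap mesenchyme, 10 in the ureteric epithelium and 21 in E14 cells. RNA was 4-fold higher in ureteric epithelium for 9 of the 27 and in mesenchyme for 2 of them. Those 2 were Foxc2 and the Notch target Heyl, and the count was 1, without Heyl, when transcripts on the opposite strand were left out. Of the 126 genes in the homeobox list, 22 carried both marks in all 3 populations, or 17.5%. The counts beside it were 4 of 6 Iroquois genes and 1.91% of all genes.

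Beyond the starts, the chromosome 13 cluster from Irx1 to Irx4 spans 1311 kb and the chromosome 8 cluster from Irx3 to Irx6 spans 882 kb, and both were mostly bare of marks. H3K27me3 covered 6.69% of the chromosome 13 cluster in cap mesenchyme, 6.15% in the ureteric epithelium and 2.60% in E14 cells. It covered 3.88, 3.34 and 3.55% of the chromosome 8 cluster in the same order. The share over all sequence was 1.04% in cap mesenchyme, 2.00% in the ureteric epithelium and 0.489% in E14 cells. H3K4me3 covered 1.35, 1.63 and 3.39% of the chromosome 13 cluster and 2.57, 3.24 and 5.16% of the chromosome 8 cluster, beside 2.02, 1.56 and 5.01% of all sequence. The 4 Hox clusters, which are packed with genes, had between 5.17 and 92.5% of their bases under H3K27me3 over the 3 lists. The kidney H3K27me3 lists hold many more and narrower peaks than the stem cell list, 108394 and 144362 against 12879 peaks, so coverage is read within a list.

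**Figure D4:**
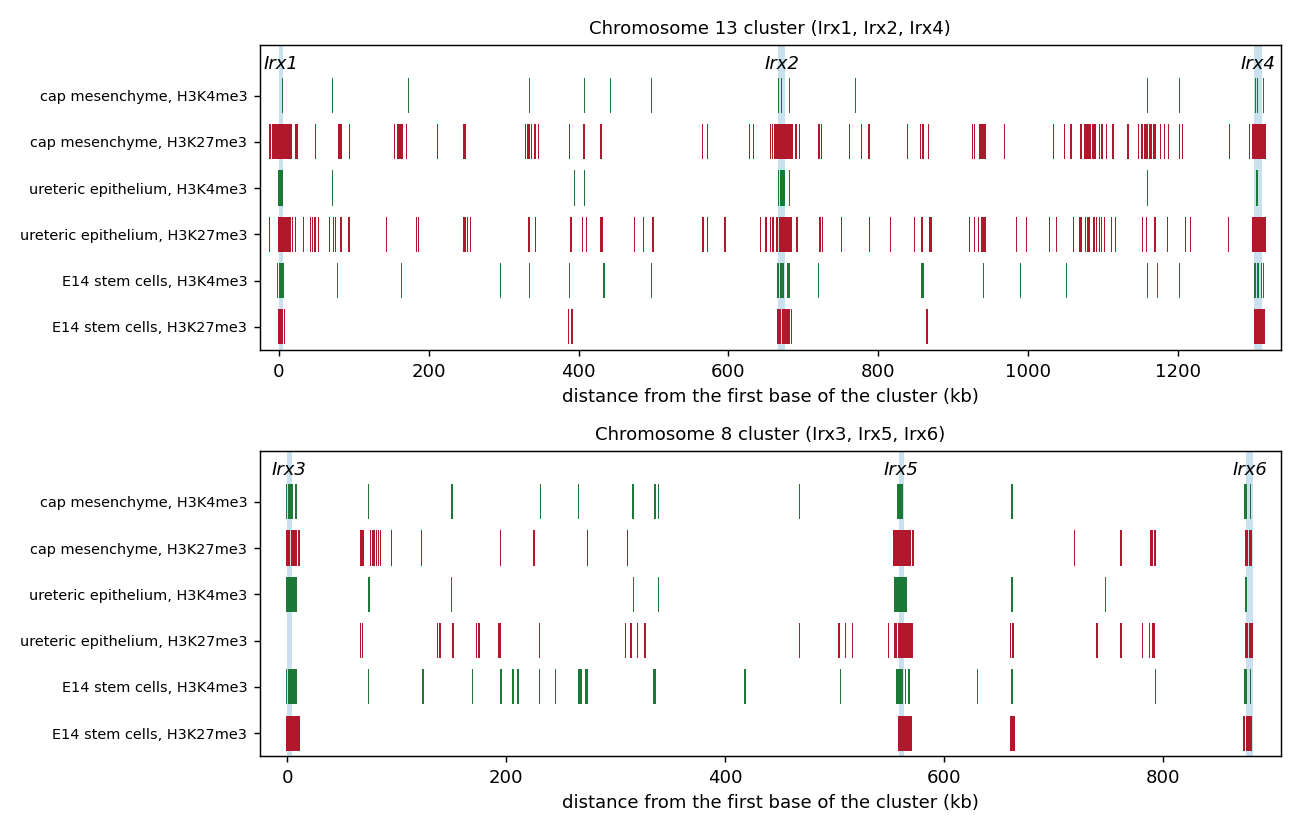
Peaks along the clusters of chromosome 13 (upper) and chromosome 8 (lower), plotted by distance in kb from the first base of the cluster, 1 list per row, with H3K4me3 in green, H3K27me3 in red and the genes in pale blue. H3K27me3 blocks sit at the genes in every list except at Irx3 in ureteric epithelium, and the kidney lists also hold scattered narrow peaks between the genes.

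The cover by H3K27me3 was concentrated at the genes. Within the 3 chromosome 13 genes and 10 kb on each side, H3K27me3 covered 66.0% of bases in cap mesenchyme, 61.5% in the ureteric epithelium and 43.0% in E14 cells. In the rest of that cluster it covered 3.25, 2.77 and 0.208%. Within the 3 chromosome 8 genes and 10 kb on each side it covered 38.5, 25.9 and 38.7%, and in the rest 0.771, 1.26 and 0.485%. The value of 25.9% in ureteric epithelium includes Irx3, where the cover was 0%, while Irx5 had 54.5% and Irx6 23.1% there.

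Noncoding genes beside the members often shared their calls. Irx3os lies on the opposite strand to Irx3 without overlapping it, and its start lies 1682 bp from that of Irx3. Irx3os and Gm39222 carried both marks in cap mesenchyme and stem cells and H3K4me3 alone in ureteric epithelium, as Irx3 did. The window of Irx3os overlaps that of Irx3, and its RNA was 0 FPKM in mesenchyme and 0.247 FPKM in ureteric epithelium. Crnde, whose start lies 1676 bp from that of Irx5, carried both marks in all 3 populations, with 0.246 and 0.0458 FPKM. Its window overlaps that of Irx5. Gm20554, whose window overlaps that of the RefSeq start of Irx2, also carried both marks in all 3. Gm39223 and Gm36380 carried neither mark in any list.

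The nearest coding genes outside the clusters did not carry H3K27me3 at their starts, apart from 126 bp at Fto in cap mesenchyme. Fto, an RNA demethylase gene 130 kb from the chromosome 8 cluster, stood at 16.8 FPKM in mesenchyme and 24.1 FPKM in ureteric epithelium. Mmp2, a matrix metalloprotease gene 146 kb away on the other side, stood at 17.7 and 6.06 FPKM. Adamts16, 1116 kb from the chromosome 13 cluster, stood at 0.394 and 3.70 FPKM, and Ndufs6, a subunit of respiratory complex I 50.3 kb away on the other side, at 5.61 and 14.2 FPKM.

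Between the genes, H3K4me3 peaks of the 3 lists merged into 23 regions in the chromosome 13 cluster and 21 in the chromosome 8 cluster. Of these, 12 and 11 were found in stem cells alone, and the stem cell H3K4me3 list is the longest, with 67022 peaks against 32992 and 23958. The same shares were not counted over the whole genome, so these counts are not read as a trait of the clusters. Found in all 3 populations were 1 region of the chromosome 13 cluster (13:73116986-73118141) and 2 of the chromosome 8 cluster (8:91872158-91873306 and 8:92459859-92461545). The last of these lies 103 kb from the Irx5 start and held 0 bp of H3K27me3 in cap mesenchyme, 615 bp in the ureteric epithelium and 1631 bp in E14 cells.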

How the data were processed

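Peaks of H3K4me3 and H3K27me3 were taken from the 6 deposited lists (native chromatin cut with micrococcal nuclease, per the labels' protocols). Per the submitters' processing notes, the authors used Bowtie2 and MACS on mm10 for chromatin, and TopHat, Cufflinks and Cuffdiff for RNA; versions, settings, control libraries and pooling are not given in the sources used here. The lists hold 1 score per peak, the authors' own, whose meaning is not stated. RNA values are the deposited FPKM of the authors' table, 1 column per tissue; read depth is unknown. Rows paired with a gene by RefSeq accession were summed, 105371 of 138486, including 929 on the strand opposite to their gene; leaving these out was tried as the main choice after the data had been seen, then kept as an alternative because the stated plan used every paired row. Strand came from the RefSeq promoter table, or from how the RNA table orders its loci, and both gave the same strand for all 24308 genes with both. Values were computed with Python 3.11.15 and pandas 2.3.3, and checked on simulated data. The pseudocount was 1 FPKM. The members, lists and comparisons were chosen with earlier results of these data known. Named were the members, noncoding genes within 20 kb, the nearest coding genes, the 5 nearest homeobox genes and list members with a mark state or 4-fold difference; 1 gene that this rule names is not reported here. Alternatives changed the window, overlap, peak threshold, list length, start, cluster extent, pseudocount, transcripts, scaling and minimum FPKM.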

Additional observations from a re-analysis of the deposited data

How the results depend on the processing

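No paired analysis was possible because each group held 1 sample. Of the 36 calls (6 members, 6 lists), all stayed under every annotated start, a window of 2 kb on each side and a score of at least 50 (added after seeing the data); 35 stayed with a 500-bp window, 33 with at least 50% of the window covered, 32 with equal list lengths and 30 with only the upper 50% of each list. The H3K27me3 call missing at Irx3 in ureteric epithelium was also missing with the 2-kb window and every annotated start; the other settings can only remove calls. Members with H3K4me3 in ureteric epithelium came to 3, and with both marks to 2, in the upper 50%; in stem cells both counts came to 3 at equal list lengths. Genes with both marks in all 3 populations came to 388 (500 bp), 973 (2 kb), 129 (50% covered), 150 (upper 50%) and 278 (equal lengths), and those with the calls of Irx3 to 38 (50% covered) and 81 (upper 50%). Genes with both marks in cap mesenchyme, the ureteric epithelium and E14 cells came to 444, 600 and 1230 (50% covered), 1016, 563 and 1980 (upper 50%), 951 and 844 in the first 2 (equal lengths), and 1100 in ureteric epithelium (score of at least 50).

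Cover of the chromosome 13 cluster, widened by 50 kb, was 1.54 and 3.50% for H3K4me3 in ureteric epithelium and stem cells, and 6.96, 6.22 and 2.78% for H3K27me3 in cap mesenchyme, the ureteric epithelium and E14 cells. In the upper 50% it was 0.593, 0 and 1.74% for H3K4me3 and 5.67, 4.57 and 2.35% for H3K27me3. At equal lengths it was 1.04 and 1.24% for H3K4me3 in cap mesenchyme and stem cells, and 4.22 and 3.66% for H3K27me3 in the kidney lists. For the chromosome 8 cluster these were 2.41, 3.02 and 4.76% with 3.55, 3.03 and 3.30% (widened), 1.29, 2.10 and 3.41% with 3.66, 3.01 and 3.02% (upper 50%), and 2.06 and 2.64% with 3.03 and 2.03% (equal lengths). Fewer peaks enter the stricter lists.

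With pseudocounts of 0.1 and 0.01 FPKM the log2 RNA differences were -4.27 and -6.20 for Irx1, -2.32 and -5.36 for Irx2, -3.80 and -3.99 for Irx3, 0.61 and 1.43 for Irx5, and 0.31 and 1.77 for Irx6. Shifted by the median they were -0.039 for Irx2, 0.54 for Irx5 and 0.48 for Irx6, and 4-fold counts over all genes were 389 in mesenchyme and 328 in ureteric epithelium. Early nephron genes higher in mesenchyme came to 1 without opposite-strand rows, and TALE relatives to 5 under the shift. Irx3 was the 1 member called under each minimum, without opposite-strand rows and under the shift; at the smaller pseudocounts Irx1, at 2.22 FPKM in ureteric epithelium, also passed the call, and Irx2 stayed under the minimum of 2 FPKM. Read depth is unknown, so values near 0 set no limit on expression.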
